A study of Homo sapiens with 6 samples.

Results

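The genes described here serve protein folding in the endoplasmic reticulum (ER), the disposal of proteins that misfold there, and the stress signalling that ends in the transcription factor ATF4. They were taken as a list of 46 symbols and matched to 46 of the 63677 Ensembl gene identifiers in the count table. The list was split by known role into 15 factors of ER-associated degradation (ERAD), 14 ER chaperones and folding factors, 4 sensing genes of the unfolded protein response, and 13 genes of the ATF4 branch. Genes were matched by symbol, with no filter on a measured value, but the list was chosen with earlier results of these data known.

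RNA was sequenced from T24 cells, an established line from a high-grade urothelial bladder carcinoma. In the siRBM3 group, RBM3, which encodes a cold-inducible RNA-binding protein, was silenced with a pool of short interfering RNAs, and the control group received a non-targeting siRNA. Both groups were exposed to 25 nM siRNA and Lipofectamine 2000 in serum-free medium for 4.5 h and then recovered overnight in full medium, so lipofection and the serum-free interval were shared by all 6 samples. Each group had 3 libraries, numbered 1, 3 and 5 for control and 3, 4 and 5 for siRBM3, and nothing in the sources says whether they came from separate cultures. P-values therefore measure the spread between these libraries, which may be technical.

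Proteins that enter the ER are folded by chaperones such as HSPA5 (BiP) and by the lectins CALR and CANX, while disulphide bonds are formed and rearranged by the PDIA family. Chains that fail to fold are recognised by lectins, passed through a membrane complex built around the adaptor SEL1L and the ubiquitin ligase SYVN1 (HRD1), extracted by the ATPase VCP and degraded by the proteasome. When unfolded protein accumulates, the sensors ERN1 (IRE1α), ATF6 and EIF2AK3 (PERK) signal to the nucleus, the first by unconventional splicing of the XBP1 mRNA and the last by phosphorylation of eIF2α, which favours translation of ATF4. ATF4 is also induced by other eIF2α kinases, for example when amino acids are scarce, and it activates genes of amino acid synthesis and uptake.

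Library totals ranged from 23603992 to 45098612 counts, and siRBM3 replicate 3 was both the deepest library and the one with the highest mitochondrial share, 9.40% against 1.63% to 4.15% in the others. RBM3 was at 225, 367 and 300 counts per 1000000 (CPM) in control and at 54.1, 90.0 and 58.3 CPM in siRBM3, a log2 fold change of −2.14 ± 0.24 (SE), in the direction the labels give. The epithelial keratin KRT7 was at 2351 to 3237 CPM in the 6 libraries, GATA3 at 9.30 to 14.2 CPM, and the urothelial marker UPK2 at 1.13 to 1.86 CPM, whereas UPK3A, KRT5 and TP63 were below 0.7 CPM. The leukocyte markers PTPRC, CD3E and CD68 were below 0.35 CPM throughout, though 85.6% of the exonic bases of CD68 are shared with other genes, so its reads are uncertain. Of the endothelial and fibroblast markers, CDH5 was at 27.2 to 40.4 CPM, COL1A1 at 7.30 to 9.51 CPM, and VWF and DCN below 0.7 CPM. In bulk RNA, fewer cells of a kind and less RNA per cell cannot be told apart.

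The strongest differences lay in different directions. SEL1L was 1.61-fold higher in siRBM3 and its partner SYVN1 1.35-fold lower. The 14 chaperones had a median log2 fold change of −0.08. Of the 13 ATF4 branch genes, 12 had lower means in siRBM3, with PHGDH, a serine synthesis enzyme, 1.53-fold lower. Across all 46 genes, all of which passed the filter on low counts, 14 had a higher and 32 a lower fitted level in siRBM3, with a median log2 fold change of −0.08 against −0.01 over the 15099 genes tested. None of the 46 passed a fold change of at least 1.5 with a false discovery rate (FDR) below 0.01 in edgeR, and neither did any other gene (0.0% of genes in either direction). At an unadjusted edgeR p under 0.05, 2 of the 46 were higher, SEL1L and DNAJC3, against 6.56% of all genes tested, and 6 were lower, SYVN1, PHGDH, SLC3A2, DDIT4, CHAC1 and DDIT3, against 6.58%. Over all genes the counts behind these shares were 990 higher and 993 lower, and they became 612 and 1130 when counts were scaled by library size only. With DESeq2, which called 0.643% of the genes with an adjusted p higher and 0.574% lower, 1 of the 46 was called, SEL1L, with an adjusted p of 7.72e-06.

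The control and siRBM3 libraries did not overlap for 3 genes that were higher (SEL1L, EDEM3 and DNAJC3), where the share over all genes was 9.98%, and for 5 that were lower (SYVN1, HYOU1, MANF, CHAC1 and PHGDH), where it was 9.93%. With 3 libraries a group, an exact permutation test of a single gene cannot give a p below 0.1. The 95% confidence interval of the fold change lay within 1.5-fold in either direction for 25 of the 46. These were 12 ERAD factors, 9 chaperones, 1 sensing gene and 3 ATF4 branch genes. The share of all genes tested with such an interval was not computed, so these counts do not set the listed genes apart from others.

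**Figure D1:**
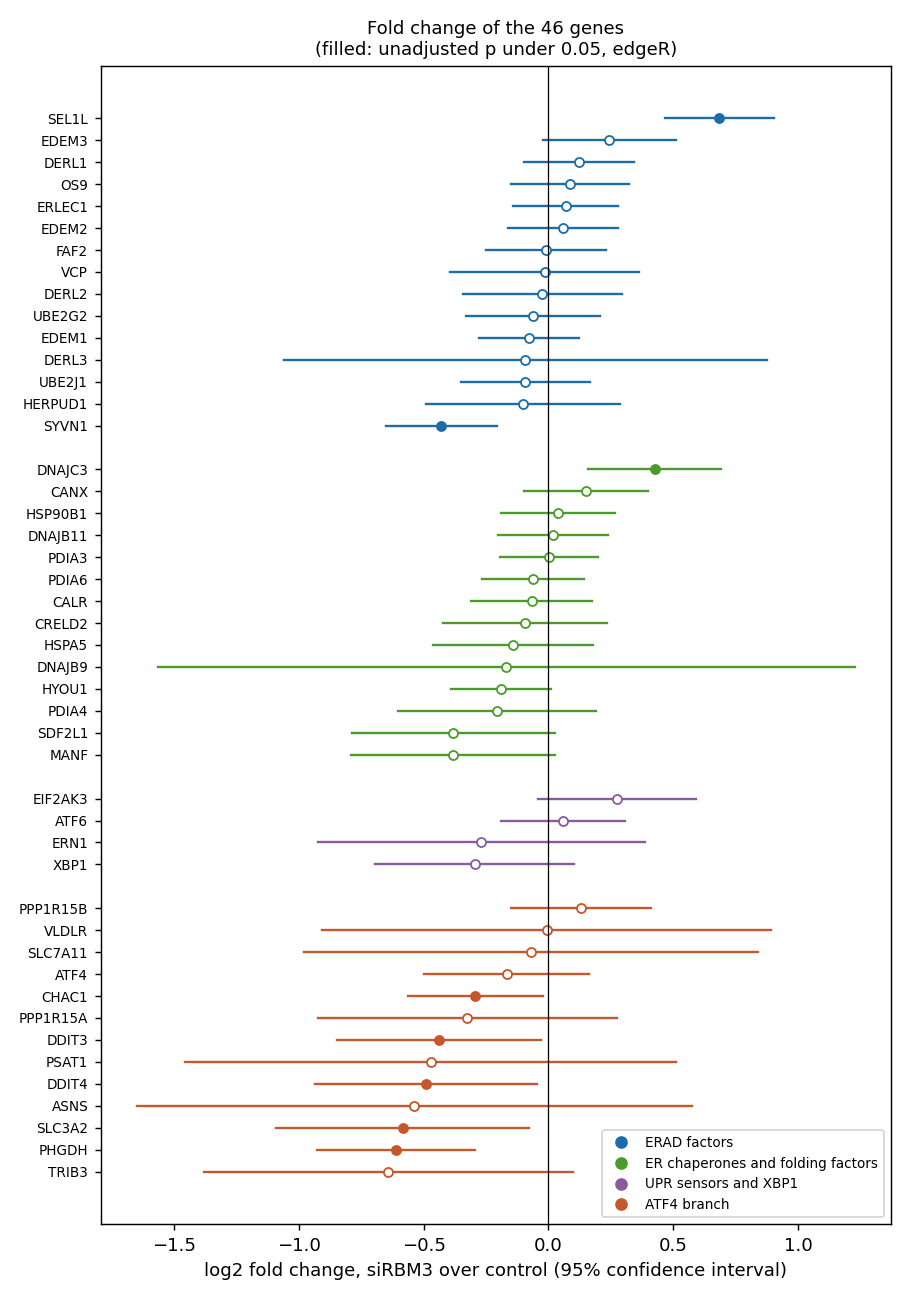
Fitted log2 fold change of siRBM3 over control for each of the 46 genes, grouped by role, with 95% confidence intervals from edgeR over 3 libraries a group. Filled points are the 8 genes with an unadjusted p under 0.05, namely SEL1L, DNAJC3, SYVN1 and 5 genes of the ATF4 branch. The interval of DNAJB9 is the widest.

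Short sequences near the start sites of these genes are shown because such elements are the textbook route from each stress sensor to its target genes. In RefSeq promoter windows (GRCh38.p14, 250 bases before to 50 after a start, 35116 windows of 27305 genes), 42 of the 46 genes had a window. Each motif was searched on both strands by exact letters. ERSE, the ER stress response element bound by ATF6 with NF-Y (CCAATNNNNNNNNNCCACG), was in 7 of the 42, namely 6 of 13 chaperones (HSPA5, HSP90B1, CALR, CANX, PDIA6 and CRELD2) and XBP1 but 0 of 13 ERAD factors and 0 of 12 ATF4 branch genes, and in 0.0916% of all genes. ERSE-II (ATTGGNCCACG) was in HERPUD1, HYOU1 and SDF2L1 and in 0.0696% of all genes. The core TGACGTGG of the unfolded protein response element, linked to XBP1, was in VCP, UBE2J1 and HYOU1 and in 0.927% of all genes, and the match in HYOU1 overlaps one of its ERSE-II matches. The composite element of CEBP and ATF4 (TGATGNAA) was in 5 of the 42, HERPUD1, PPP1R15B, ASNS, CHAC1 and SLC3A2, and in 4.46% of all genes. The windows of SEL1L, SYVN1, DNAJC3 and PHGDH held none of these letters. Examples follow 5′ to 3′ on the strand of the gene, with the matched letters in capitals, which read as the reverse complement where the motif lies on the other strand.
HSPA5, ERSE, chr9:125241376-125241424, minus strand: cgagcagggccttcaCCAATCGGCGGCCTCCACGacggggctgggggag
CANX, ERSE, chr5:179698763-179698811, plus strand: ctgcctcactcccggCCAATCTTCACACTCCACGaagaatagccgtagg
CALR, ERSE on the other strand, chr19:12938369-12938417, plus strand: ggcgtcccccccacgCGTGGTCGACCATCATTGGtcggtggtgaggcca
XBP1, ERSE, chr22:28800588-28800636, minus strand: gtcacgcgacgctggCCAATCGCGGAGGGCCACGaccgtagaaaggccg
HERPUD1, ERSE-II, chr16:56932010-56932050, plus strand: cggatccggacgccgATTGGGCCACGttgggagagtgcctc
HYOU1, core of the unfolded protein response element, chr11:119057371-119057408, minus strand: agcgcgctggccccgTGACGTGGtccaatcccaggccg
ASNS, composite element, chr7:97872454-97872491, minus strand: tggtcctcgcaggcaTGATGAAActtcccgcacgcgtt
CHAC1, composite element on the other strand, chr15:40953247-40953284, plus strand: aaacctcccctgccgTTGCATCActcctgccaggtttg
A match describes these letters in this window, and binding was not measured.

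Among the ERAD factors, SEL1L stood at the upper end and SYVN1 at the lower. SEL1L (ENSG00000071537, GRCh37 chr14:81937891-82000197, minus strand), the adaptor that holds the membrane complex together, was at 86.6, 83.4 and 77.8 CPM in control and at 142, 124 and 133 CPM in siRBM3. Every siRBM3 library was above every control library. The log2 fold change was 0.68 ± 0.09 (SE), a 1.61-fold difference with a 95% interval of 1.38 to 1.87, and the edgeR FDR was 0.0822, which was also the value of RBM3 and the lowest in the table. Leaving out any 1 library gave 0.63 to 0.73. SYVN1 (ENSG00000162298, GRCh37 chr11:64889252-64902003, minus strand), the ubiquitin ligase that SEL1L recruits, was at 76.8, 80.8 and 81.5 CPM in control and at 57.4, 64.5 and 55.6 CPM in siRBM3. Here every siRBM3 library was below every control library, with a log2 fold change of −0.43 ± 0.10 (SE) and an edgeR FDR of 0.151. Annotated exons of FAU and MRPL49 cover 8.84% of the exonic bases of SYVN1, and none overlap SEL1L.

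The ratio of SEL1L to SYVN1 in CPM, which was chosen after their values were seen, was 1.13, 1.03 and 0.955 in control and 2.47, 1.92 and 2.39 in siRBM3. The means were 1.04 ± 0.09 and 2.26 ± 0.30 (SD, n = 3), a log2 difference of 1.12. SEL1L was above and SYVN1 below every control library in each siRBM3 library, so the ratio had to separate the groups. Its 2-sided exact permutation p of 0.1, the smallest this design can give, was thus fixed in advance and adds no support. The counts of both genes, which are not scaled for length, were near equal in each control library and apart in each siRBM3 library.

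The other 13 ERAD factors had no unadjusted edgeR p under 0.05, and the median log2 fold change of all 15 was −0.02, with 6 higher and 9 lower. EDEM3, a lectin of the mannosidase family that marks misfolded glycoproteins, was at 41.9, 47.2 and 39.5 CPM in control and at 56.2, 47.5 and 48.5 CPM in siRBM3. Its groups did not overlap, though the closest libraries differed by under 1 CPM, and the log2 fold change was 0.24 ± 0.12 (SE) with an edgeR FDR of 0.420. Its relatives EDEM1 and EDEM2 had log2 fold changes of −0.08 and 0.06, and their groups overlapped. HERPUD1, a stress-induced scaffold of the SYVN1 complex that carries both an ERSE-II and a composite element, was at 101, 154 and 148 CPM in control and at 141, 123 and 111 CPM in siRBM3, so that its groups overlapped widely. The derlins, channel-forming partners of the complex, showed log2 fold changes of 0.12 for DERL1 and −0.02 for DERL2. DERL3 was near the limit of detection at 0.420 to 1.31 CPM, and 77.0% of its exonic bases are shared with SMARCB1 on the opposite strand, so its reads are uncertain. For VCP, which pulls substrates out of the membrane, the values were 464, 328 and 339 CPM against 312, 380 and 427 CPM. The glycan-binding lectins OS9 and ERLEC1, which deliver substrates to SEL1L, had log2 fold changes of 0.09 and 0.07, with 23.9% of the exonic bases of OS9 shared with other genes, and the ubiquitin-conjugating enzymes UBE2J1 and UBE2G2 and the VCP recruiter FAF2 lay between −0.09 and −0.01.

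**Figure D2:**
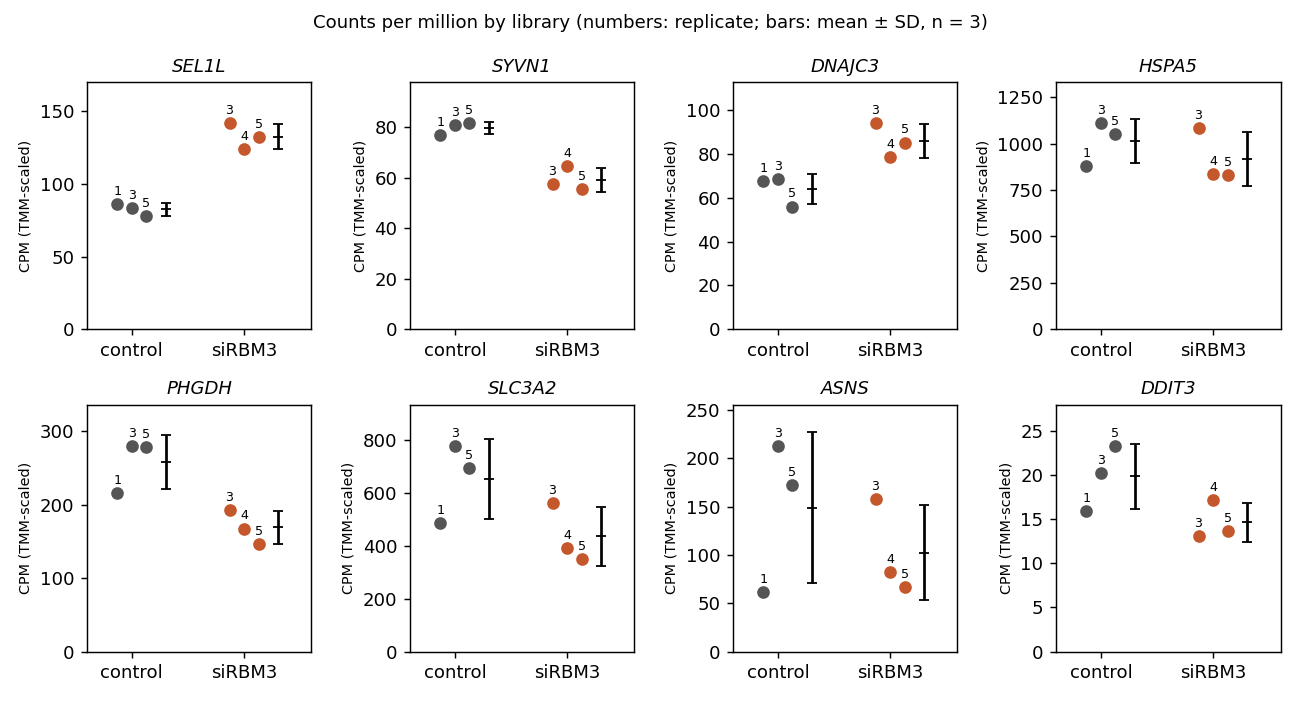
CPM in each library for 8 genes, with the replicate number above each point and the mean ± SD (n = 3) beside each group; every axis starts at 0. SEL1L, SYVN1, DNAJC3 and PHGDH have no overlap between groups, while in ASNS control replicate 1 (61.7 CPM) lies below all siRBM3 libraries.

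The ER chaperones and folding factors, the most abundant of the 4 roles in sum, were close to even between the groups. Their summed level was 6990, 6817 and 6887 CPM in control and 7068, 6748 and 6499 CPM in siRBM3, and the mean share of all counts was 0.690% and 0.677%. Of the 14, 5 were higher and 9 lower, with a median log2 fold change of −0.08, and 3 of the 5, HSP90B1, PDIA3 and DNAJB11, turned lower when scaled by library size only. HSPA5, the main ER chaperone and a sentinel of the unfolded protein response, was at 881, 1109 and 1049 CPM in control and at 1084, 837 and 833 CPM in siRBM3. Its groups overlapped, and the log2 fold change was −0.14 ± 0.14 (SE) with a fold interval of 0.73 to 1.13. The other 5 chaperones with an ERSE had log2 fold changes of 0.04 for HSP90B1, −0.07 for CALR, 0.15 for CANX, −0.06 for PDIA6 and −0.10 for CRELD2. Of the exonic bases of PDIA6, 25.2% are shared with other genes.

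DNAJC3 (ENSG00000102580, GRCh37 chr13:96329393-96447242, plus strand), a co-chaperone of HSPA5 also known as an inhibitor of eIF2α kinases, was the 1 member of this role with an unadjusted edgeR p under 0.05. It was at 67.6, 68.5 and 56.0 CPM in control and at 93.9, 78.8 and 85.2 CPM in siRBM3, without overlap. The log2 fold change was 0.42 ± 0.12 (SE), a 1.34-fold difference, with an edgeR FDR of 0.202. Of the other J-domain proteins, DNAJB11 had a log2 fold change of 0.02, and DNAJB9 was at 8.30, 39.3 and 18.4 CPM in control and at 33.4, 14.1 and 10.8 CPM in siRBM3. DNAJB9 therefore varied more within each group than between them, with a log2 fold change of −0.17 ± 0.60 (SE).

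At the lower end, MANF, a small secreted folding factor, was at 75.4, 71.3 and 87.9 CPM in control and at 43.8, 69.1 and 67.1 CPM in siRBM3. The groups did not overlap, but 1 siRBM3 library, replicate 3, lay far below the others, and without it the log2 fold change went from −0.38 ± 0.18 (SE) to −0.20. SDF2L1, a partner of the HSPA5 cycle, had the same fitted difference of −0.38 ± 0.18 (SE) with overlapping groups. HYOU1, the exchange factor for HSPA5, was at 580, 543 and 537 CPM in control and at 469, 483 and 502 CPM in siRBM3. That is a small difference without overlap, a log2 fold change of −0.19 ± 0.09 (SE) with an edgeR FDR of 0.400, and 9.77% of its exonic bases lie opposite another annotated gene. The thiol isomerases PDIA3 and PDIA4 had log2 fold changes of 0.0017 and −0.21.

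None of the 4 sensing genes had an unadjusted edgeR p under 0.05, and their median log2 fold change was −0.10, which turned to 0.07 without control replicate 3. EIF2AK3, the eIF2α kinase of the ER, was at 20.7, 17.5 and 16.0 CPM in control and at 20.2, 23.2 and 22.3 CPM in siRBM3, a log2 fold change of 0.27 ± 0.14 (SE). ATF6 was at 104, 125 and 122 CPM against 133, 115 and 117 CPM, a difference of 0.06 ± 0.11 (SE) with a fold interval of 0.88 to 1.24. ERN1 was at 17.3, 37.2 and 26.9 CPM against 28.9, 20.5 and 18.0 CPM, a difference of −0.27 ± 0.28 (SE). The total level of its substrate XBP1 was 181, 270 and 244 CPM in control and 227, 174 and 166 CPM in siRBM3, a difference of −0.30 ± 0.17 (SE). In ERN1 and XBP1 control replicate 1 was the lowest control library and siRBM3 replicate 3 the highest siRBM3 library. Counts per gene cannot show XBP1 splicing, nor the phosphorylation or cleavage by which the sensors act.

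The ATF4 branch had the lowest median of the 4 roles, −0.44, with 12 of 13 genes lower and 5 of the 13 at an unadjusted edgeR p under 0.05, where the share of all genes tested was 6.58%, although SLC7A11 and VLDLR turned higher with limma-voom. PHGDH (ENSG00000092621, GRCh37 chr1:120191034-120286841, plus strand), which catalyses the first step of serine synthesis, was at 216, 280 and 278 CPM in control and at 192, 167 and 147 CPM in siRBM3. Its groups did not overlap, and the log2 fold change was −0.61 ± 0.14 (SE) with an edgeR FDR of 0.152. PSAT1, the next enzyme of the same route, was at 162, 447 and 328 CPM in control and at 346, 185 and 144 CPM in siRBM3, so its groups overlapped and its log2 fold change of −0.47 had an SE of 0.42. ASNS, asparagine synthetase, showed the same arrangement at 61.7, 213 and 173 CPM against 158, 82.9 and 66.6 CPM, with a log2 fold change of −0.54 ± 0.48 (SE). Without control replicate 3 the differences were −0.12 for PSAT1 and −0.19 for ASNS, and without siRBM3 replicate 3 they were −0.92 and −0.997. Since 49.3% of its exonic bases lie in another annotated gene on the same strand, its reads are uncertain.

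Among the transporters, SLC3A2, the heavy chain that brings amino acid transporters to the cell surface, was at 486, 776 and 694 CPM in control and at 562, 392 and 350 CPM in siRBM3. The groups overlapped through control replicate 1 and siRBM3 replicate 3, and the log2 fold change was −0.58 ± 0.22 (SE) with an edgeR FDR of 0.317. Its light chain SLC7A11, the cystine transporter, was at 78.9, 227 and 164 CPM against 212, 110 and 126 CPM, a log2 fold change of −0.07 ± 0.39 (SE). Control replicate 1 was the lowest of all 6 libraries for SLC7A11.

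ATF4 itself was at 539, 738 and 762 CPM in control and at 663, 590 and 563 CPM in siRBM3, a log2 fold change of −0.17 ± 0.14 (SE) with overlapping groups, and its main control is at translation, which was not measured. DDIT3 (CHOP), a transcription factor of prolonged stress, was at 15.9, 20.3 and 23.3 CPM in control and at 13.1, 17.2 and 13.7 CPM in siRBM3, a difference of −0.44 ± 0.18 (SE). Other genes, MARS1 among them, share 39.6% of its exonic bases, so its reads are uncertain. CHAC1, which degrades glutathione, was at 98.0, 83.5 and 82.8 CPM against 64.3, 80.4 and 71.3 CPM, a difference of −0.29 ± 0.12 (SE) without overlap. For DDIT4, an inhibitor of mTORC1, the control libraries were close together at 673, 630 and 670 CPM, and the siRBM3 libraries were at 411, 634 and 363 CPM. Replicate 4 of siRBM3 thus lay within the control range, and the difference of −0.49 ± 0.19 (SE) became −0.77 without it. TRIB3, a pseudokinase that restrains ATF4 and CHOP, had the largest fitted difference of the 46 in the lower direction, −0.64 ± 0.32 (SE), from 336, 712 and 599 CPM against 488, 303 and 265 CPM. Without control replicate 3 it was −0.41, and without siRBM3 replicate 3 it was −0.95, so its rank rests on single libraries.

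The 2 regulatory subunits that direct dephosphorylation of eIF2α stood on opposite sides. The stress-induced PPP1R15A (GADD34) was at 190, 321 and 315 CPM against 286, 159 and 215 CPM, a log2 fold change of −0.32 ± 0.26 (SE). The constitutive PPP1R15B was at 91.9, 110 and 100 CPM against 126, 97.1 and 107 CPM, a log2 fold change of 0.13 ± 0.12 (SE). Both pairs of groups overlapped, and the ratio of PPP1R15A to PPP1R15B gave a 2-sided exact permutation p of 0.2. VLDLR, a lipoprotein receptor, was low at 6.23 to 16.2 CPM and had a log2 fold change of −0.01 ± 0.39 (SE).

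Of the 8 genes with an unadjusted edgeR p under 0.05, SEL1L, SYVN1, DNAJC3 and PHGDH stayed under it whichever 1 library was left out, with highest p-values of 0.00060, 0.012, 0.025 and 0.011. The other 4 did not. The p of SLC3A2 was 0.10 without control replicate 3, that of DDIT4 0.10 without siRBM3 replicate 5, that of CHAC1 0.13 without siRBM3 replicate 3, and that of DDIT3 0.15 without control replicate 5. The median of the ATF4 branch was −0.20 without control replicate 3 and −0.54 without siRBM3 replicate 3.

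Of the 4 roles, the ATF4 branch also varied most within a group. The median within-group SD on the log2 scale was 0.36 for its 13 genes, against 0.12 for the ERAD factors, 0.13 for the chaperones, 0.21 for the sensing genes and 0.20 for all genes tested. Each library was summarised by the mean log2 difference of these 13 genes from their own mean over the 6 libraries. This was −0.27, 0.45 and 0.33 in control replicates 1, 3 and 5 and 0.15, −0.26 and −0.40 in siRBM3 replicates 3, 4 and 5. The group means of 0.17 ± 0.39 and −0.17 ± 0.29 (SD, n = 3) differed by less than the SD of the control group. Control replicate 1 lay with siRBM3 replicates 4 and 5, and siRBM3 replicate 3 lay above it. Replicate 3 was the highest library of each group. For the numbers found in both groups, 3 and 5, the siRBM3 library lay below the control library of that number. Nothing in the sources says that a number marks a shared culture. The same summary stayed within −0.03 to 0.05 for the ERAD factors and −0.08 to 0.05 for the chaperones in all libraries.

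The arrangement recurred gene by gene. Control replicate 1 was the lowest control library in 11 of the 13 ATF4 branch genes, siRBM3 replicate 3 was the highest siRBM3 library in 10, and both held in 10. Over all genes tested the shares were 38.1%, 38.2% and 21.5%. DDIT3, CHAC1 and DDIT4 did not have both. As given above, siRBM3 replicate 3 was also the deepest library with the highest mitochondrial share. Control replicate 1 had the lowest mitochondrial share, and control replicate 3 the highest of the control libraries, 2.86%. The part of depth and mitochondrial share in these levels was not tested.

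**Figure D3:**
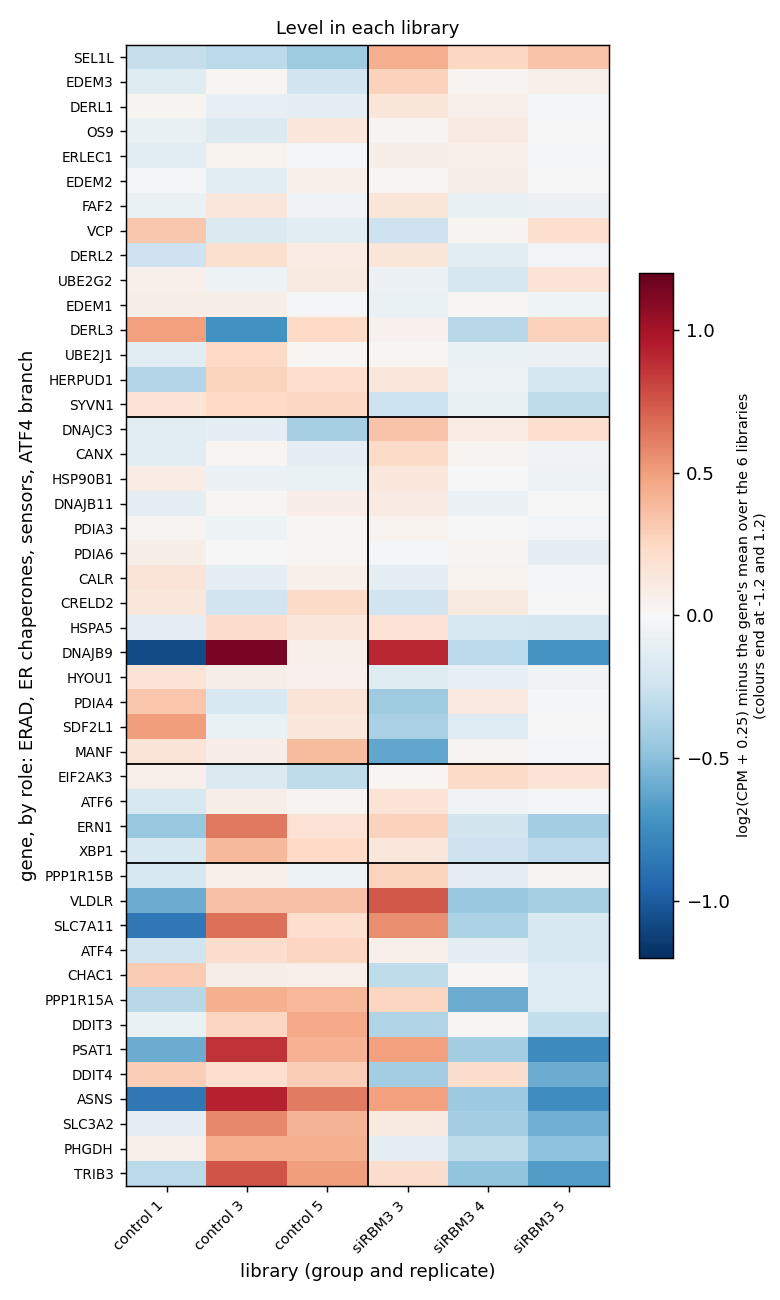
Level of each of the 46 genes in each of the 6 libraries as log2(CPM + 0.25) minus the gene's mean over the libraries, with rows grouped by role and colours ending at −1.2 and 1.2. SEL1L and SYVN1 split the groups in opposite directions, and in the ATF4 branch control replicate 1 is pale or blue and siRBM3 replicate 3 pale or red in most rows.

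Other genes of the same pathways, listed by role, were read in the same fit, where 6.56% of all genes tested were higher and 6.58% lower at an unadjusted edgeR p under 0.05, and single genes at this threshold in lists of 8 to 16 are near those shares. Of 16 other ERAD genes, 1 was higher and 0 lower at this threshold, with a median log2 fold change of −0.06. The higher one was MARCHF6, a ubiquitin ligase of the ER membrane outside the SYVN1 complex, at 148, 154 and 130 CPM against 207, 165 and 168 CPM, a difference of 0.32 ± 0.12 (SE). Of 14 other folding genes tested, 0 were higher and 1 was lower, FKBP14, a proline isomerase of the ER, at −0.41 ± 0.12 (SE), and the median was 0.02. TXNDC5 had at most 2 counts a library and was not tested, and 61.1% of its exonic bases are shared with other genes, mostly a read-through transcript.

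Of 8 other sensing genes tested, 1 was higher, MBTPS1, the site-1 protease that makes the first cut in ATF6. It was at 159, 115 and 137 CPM in control and at 212, 201 and 217 CPM in siRBM3 without overlap, a log2 fold change of 0.62 ± 0.12 (SE), and the edgeR FDR was 0.118. DESeq2 called it, with an adjusted p of 0.0046. BLOC1S1, a substrate of ERN1, was listed at 0 in all libraries and was not tested, and 36.6% of its exonic bases overlap other genes, so this 0 is uncertain.

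The 29 other ATF4-linked genes followed the 13 listed ones, with 27 lower and 2 higher and a median log2 fold change of −0.31. At an unadjusted edgeR p under 0.05, 7 of the 29 were lower and 1 was higher, against 6.58% and 6.56% of all genes tested. GDF15, a stress-induced secreted factor, was at 213, 290 and 253 CPM in control and at 160, 139 and 120 CPM in siRBM3 without overlap. Its log2 fold change was −0.85 ± 0.14 (SE), with an edgeR FDR of 0.0921, and DESeq2 called it with an adjusted p of 0.00015. PYCR1, an enzyme of proline synthesis that shares 29.7% of its exonic bases with other genes, differed by −0.28 ± 0.11 (SE). The higher gene, KLHL24, a ubiquitin ligase adaptor, was at 37.3, 42.1 and 40.6 CPM against 70.5, 55.7 and 56.8 CPM, a difference of 0.61 ± 0.12 (SE) that DESeq2 called with an adjusted p of 0.0036. Control replicate 1 was the lowest control library in 29 of the 29 genes and siRBM3 replicate 3 the highest siRBM3 library in 28, so these genes, which are no independent sample of cells, repeated the order of libraries seen in the ATF4 branch.

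**Figure D4:**
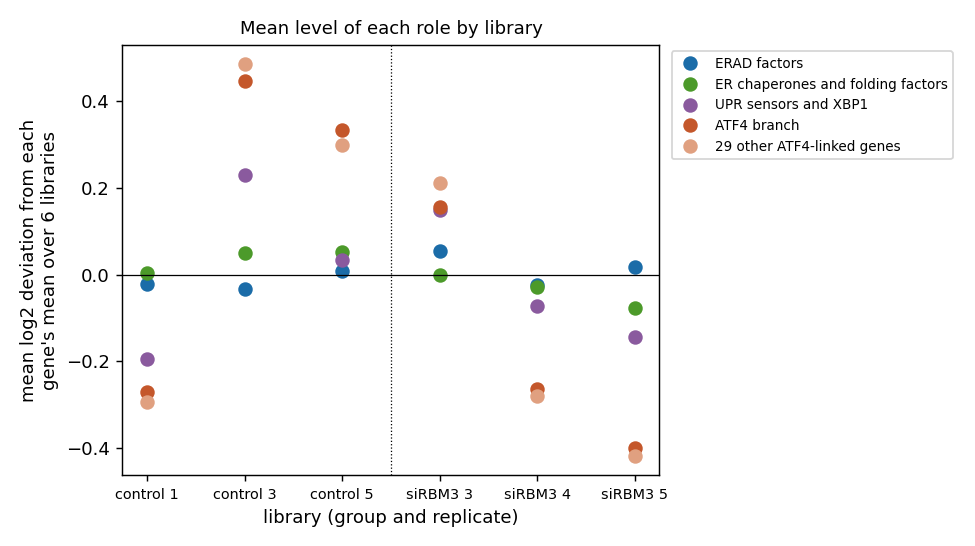
Mean log2 deviation of each role from its genes' means over the 6 libraries, one point a role and library, with the control libraries left of the dotted line. The ATF4 branch and the 29 other ATF4-linked genes run together, low in control replicate 1 and in siRBM3 replicates 4 and 5, while ERAD factors and chaperones stay between −0.08 and 0.05.

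Levels were compared between genes per length, as CPM divided by the annotated exon length in kilobases (RPKM). Exon length was the union of all annotated exons, with the canonical transcript, where one was annotated, as a check on each order. In control, CALR was the highest chaperone at 397 ± 38 RPKM (SD, n = 3), and 585 RPKM by canonical length. HSPA5 and PDIA6 were at 155 ± 18 and 147 ± 3.2 RPKM and HSP90B1 at 81.7 ± 5.2 RPKM, whereas by canonical length HSP90B1 was second at 385 RPKM, above PDIA6 at 264 and HSPA5 at 258 RPKM, so the order below CALR depended on the length used. The transcription factor XBP1, at 76.5 ± 15 RPKM, was far above ATF6 at 8.20 ± 0.80 RPKM and above ERN1 and EIF2AK3 at 1.42 ± 0.52 and 0.87 ± 0.12 RPKM, and the order of the last pair also depended on the length used. SYVN1 and SEL1L were at 14.5 ± 0.46 and 8.65 ± 0.46 RPKM in control and at 10.8 ± 0.86 and 13.9 ± 0.93 RPKM in siRBM3. By canonical length SYVN1 was the higher of the pair in both groups, at 26.2 against 10.4 RPKM in control and 19.5 against 16.8 RPKM in siRBM3, so the data do not settle which of them was more abundant in siRBM3. In the ATF4 branch, VLDLR was lowest at 0.62 ± 0.21 RPKM, and ATF4 was at 260 ± 47 RPKM. DDIT4, for which no canonical length was available, was at 320 ± 12 RPKM.

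**Figure D5:**
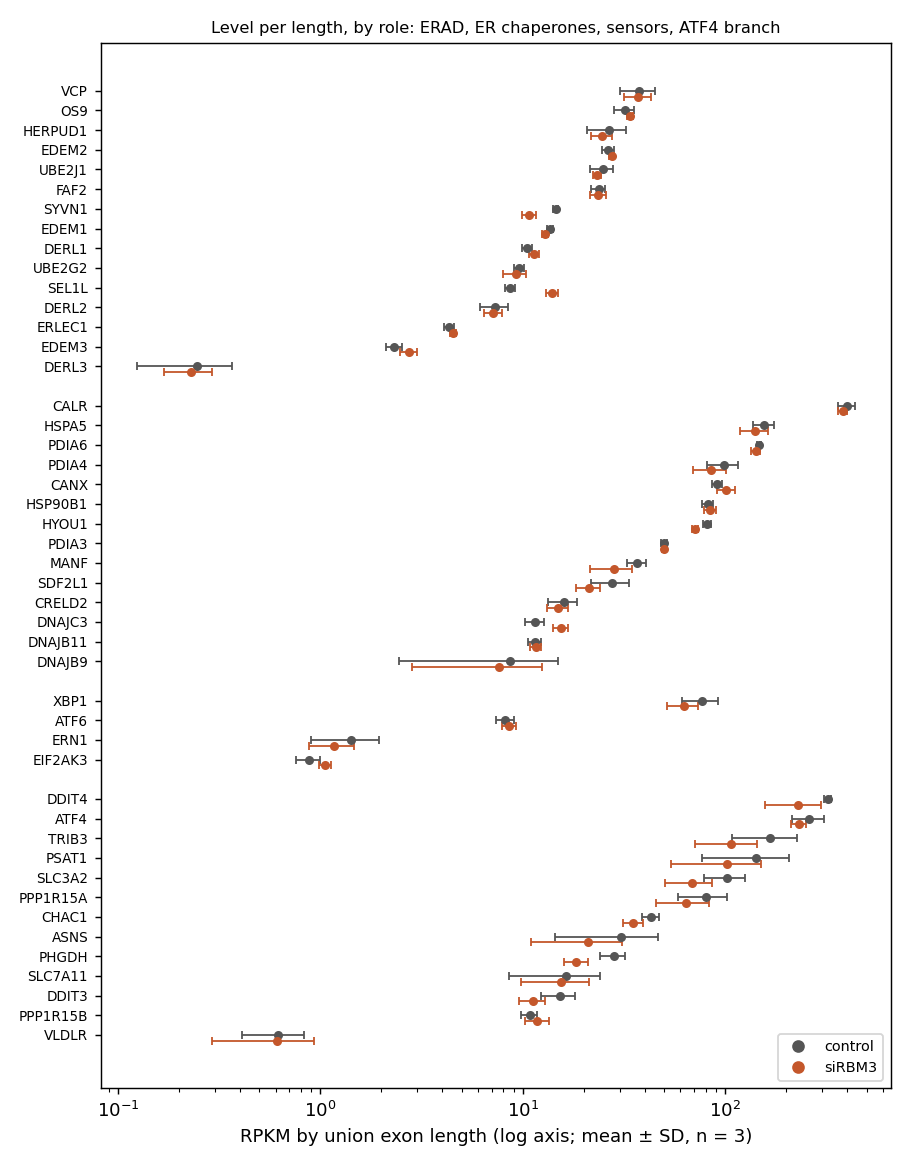
Level of the 46 genes as CPM per kilobase of union exon length (RPKM), on a log axis, ordered within each role by the control mean, with mean ± SD over 3 libraries a group. SEL1L, SYVN1, DNAJC3, PHGDH, HYOU1 and DDIT4 have separated bars, though the libraries of DDIT4 overlap. ERN1 and EIF2AK3 lie near 1 RPKM while CALR exceeds 300 in both groups.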

How the data were processed

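Polyadenylated RNA from 6 T24 samples was sequenced as stranded single-end reads of 75 bases. Per the labels and the methods of the study, the authors aligned reads to hg19/GRCh37 with STAR 2.5.2a, used Picard to mark duplicates and summed the reads of each gene with featureCounts of Subread. The deposited values are raw counts per Ensembl gene, without normalization. No source used here gives the annotation release, the strand setting or whether duplicates were counted, so overlapping genes are reported as uncertain. Symbols and GRCh37 positions were taken from GENCODE and matched 55665 of 63677 identifiers. Exon lengths and overlaps between genes came from the same GENCODE annotation, which may differ from the one used for counting. An overlap given here therefore marks a possible loss or gain of reads, which the counts do not show.

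Genes were kept by filterByExpr (minimum count 10, minimum total 15), which left 15099. Library sizes were adjusted by TMM, and the counts were tested by the quasi-likelihood method of edgeR 4.0.16 (default form, robust) on all 6 libraries with the group as the only factor, and p-values were 2-sided and adjusted by the Benjamini-Hochberg method over all genes tested. Calls required a 1.5-fold difference and an FDR below 0.01. CPM values use TMM-scaled library sizes, and per-library summaries use log2(CPM + 0.25). DESeq2 1.42.0 (no prior on fold changes), limma-voom (limma 3.58.1) and other normalizations, filters and left-out libraries were alternatives. The fit was also run on simulated counts, and the outcome is not given here. R 4.3.3 and Python 3.11.15 were used.

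The members, roles and lists of other pathway genes were chosen with earlier results of these data known, so no p-value was adjusted over a list and no list was tested as a set. Named genes were RBM3, SEL1L, HSPA5, the sensing genes, ATF4 and DDIT3, members with an unadjusted p under 0.05, the 2 highest and 2 lowest fold changes of each role, genes of the same complex or family, and, among other genes with an unadjusted p under 0.05, at most 2 in each direction of each list, those with the smallest p. Further members are given with their values. Libraries of the same group were compared and none was a duplicate of another, with chi-square per degree of freedom from 27.7 to 141. Precision was limited by the 3 libraries a group, and for DERL3 also by its count, which was 11 to 38 a library.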

Additional observations from a re-analysis of the deposited data

How the results depend on the processing

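Of the 46 genes, 30 kept the sign of their fold change under every alternative and 16 turned in at least 1, all of them with small or variable differences. SEL1L, SYVN1, DNAJC3 and PHGDH were not among those that turned. With 1 library left out, the number of members at an unadjusted edgeR p under 0.05 ran from 2 to 3 higher. The lower count ran from 3, when control replicate 5 was left out, to 9, when control replicate 1 was left out. Over all genes the counts with 1 library left out ran from 672 to 1141 higher and from 695 to 1325 lower. The lower counts over all genes were at their ends in the same fits. With DESeq2, SEL1L was the 1 member called, and 84 genes were called higher and 75 lower overall. Without a filter on low counts, edgeR called 1 member higher and 1 lower, and 127 and 152 of all genes. With edgeR, an FDR below 0.05 with no minimum fold still called 0 genes, and leaving out 1 library gave 0 genes called higher and 0 to 1 called lower, the 1 without control replicate 1. RBM3 had a log2 fold change of −2.14 with DESeq2 and −2.13 without the filter, past the threshold in both, and −2.40 to −1.96 with 1 library left out.

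Scaling by library size only moved the median of all genes to −0.06, and with it the median of the ERAD factors to −0.061 and of the chaperones to −0.13, and gave 612 genes higher and 1130 lower at an unadjusted edgeR p under 0.05. With 1 library left out, those medians ran from −0.042 to 0.036 and from −0.087 to −0.046. Signs turned for HSP90B1 (−0.017), PDIA3 (−0.049) and DNAJB11 (−0.032) with library size only, for PDIA3 with DESeq2 (−0.00096) and RLE factors (−0.0012), for DERL3 (0.018), DNAJB9 (0.013), SLC7A11 (0.0086) and VLDLR (0.0083) with limma-voom, and for VLDLR (0.0024) without the filter.

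Leaving out 1 library at a time gave both signs for DERL2 (−0.15 to 0.068), DERL3 (−0.43 to 0.24), HERPUD1 (−0.27 to 0.011), VCP (−0.12 to 0.16), UBE2J1 (−0.18 to 0.0098), UBE2G2 (−0.17 to 0.018), FAF2 (−0.087 to 0.058), HSP90B1 (−0.019 to 0.089), PDIA3 (−0.030 to 0.019), DNAJB9 (−0.82 to 0.55), DNAJB11 (−0.039 to 0.062), CRELD2 (−0.22 to 0.0013), ERN1 (−0.51 to 0.026), ATF6 (−0.021 to 0.11), SLC7A11 (−0.41 to 0.30) and VLDLR (−0.54 to 0.20), with the lowest and highest log2 fold changes in parentheses.

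The replicate numbers 3 and 5 occur in both groups. Deviations from the group means correlated at 0.53 for number 3 and 0.09 for number 5. Between control and siRBM3 libraries of unlike number the correlations ran from −0.36 to 0.20. Nothing says that a number marks a shared culture or day. A fit with the replicate number as a block draws its group contrast from these 2 pairs alone, since control replicate 1 and siRBM3 replicate 4 have no partner. The spread behind its p-values comes from the same 2 pairs and leaves 1 residual degree of freedom, so its calls are weakly founded. With this replicate block, edgeR called 1 member higher, SEL1L, and 2 lower, PHGDH and DDIT4, and an unadjusted p under 0.05 was reached by 4 members that were higher and 15 that were lower. Over all genes 145 were called higher and 191 lower, with 1714 and 2031 at an unadjusted p under 0.05, RBM3 was at −2.57 and past the threshold, and the medians were 0.028 for ERAD, −0.19 for the sensing genes and −0.70 for the ATF4 branch. DERL3 (0.51), VCP (0.13) and UBE2G2 (0.028) changed sign under the block. The block also took control replicate 1 and siRBM3 replicate 4 out of the contrast. The effect of losing them and that of the block itself cannot be told apart here, and neither was tested.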
